A study of Mus musculus with 18 samples.

Results

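The genes described here are 9 of the 23420 gene symbols counted, chosen by name for their known roles. The choice was made with earlier results of these data known, so their counts beside the shares over all genes are descriptive. They are the sestrins Sesn2 and Sesn3, Ddit4 (REDD1), Eif4ebp1 (4E-BP1), Tsc22d3 (GILZ), the GADD45 family (Gadd45a, Gadd45b and Gadd45g) and Gdf15. RNA was sequenced from 18 cultures of NIH-3T3, an immortalised mouse fibroblast line, with 3 biological replicates in each of 6 groups. The lines were wild type (WT) and a line in which Nrf1 (gene symbol Nfe2l1) was knocked out with CRISPR/Cas9 (KO). In each line the groups were vehicle (DMSO) and carfilzomib (CFZ), given at 200 nM for 6 h or for 24 h. CFZ is an irreversible inhibitor of the proteasome, and Nrf1 is the transcription factor that raises proteasome genes when proteasome activity falls. All groups share the same line of origin, medium and serum. The sources name a single KO line without its clonal origin, and they give no time for the DMSO cultures, so one DMSO group per line served both CFZ times.

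mTORC1 is the kinase complex that couples amino acids, energy and growth factors to translation and cell growth. Cells under stress restrain it at several points: sestrins bind the GATOR2 complex and report leucine shortage, REDD1 acts through the TSC complex, and 4E-BP1 holds the cap-binding protein eIF4E when mTORC1 does not phosphorylate it. GADD45 proteins are small stress-induced proteins that bind the kinase MEKK4 upstream of p38, the replication clamp PCNA and the mitotic kinase CDK1. GILZ is a leucine zipper protein best known as a target of the glucocorticoid receptor, and GDF15 is a stress hormone that acts on the brainstem receptor GFRAL.

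The known routes to several of these genes run through short DNA elements, so promoters are shown for Sesn2 and Gadd45g, which held motif matches, and for Ddit4, whose response differed most between the lines. RefSeq promoters of build GRCm38.p6 (250 bases before to 50 bases after a start) were at hand for 8 of the 9 genes, 11 promoters in all, and Eif4ebp1 was not among them. Both strands were searched for the antioxidant response element core TGACNNNGC, the C/EBP-ATF composite site TGATGNAA and the cyclic AMP response element TGACGTCA. The 250 bases before the start are printed 5′ to 3′ on the gene's strand, with motif matches in capitals. Sesn2 is at chr4:132510457-132510706 on the minus strand, Gadd45g at chr13:51846425-51846674 on the plus strand and Ddit4 at chr10:59951771-59952020 on the minus strand.
Sesn2: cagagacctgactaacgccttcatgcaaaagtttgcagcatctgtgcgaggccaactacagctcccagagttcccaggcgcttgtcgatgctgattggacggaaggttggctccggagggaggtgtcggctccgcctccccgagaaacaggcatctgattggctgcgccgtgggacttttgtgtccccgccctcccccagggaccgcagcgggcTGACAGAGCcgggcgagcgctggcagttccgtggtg
Gadd45g: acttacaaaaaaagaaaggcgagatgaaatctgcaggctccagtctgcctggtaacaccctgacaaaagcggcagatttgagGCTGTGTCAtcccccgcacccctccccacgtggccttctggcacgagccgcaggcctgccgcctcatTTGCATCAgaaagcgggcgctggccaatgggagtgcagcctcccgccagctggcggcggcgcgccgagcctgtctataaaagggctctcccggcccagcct
Ddit4: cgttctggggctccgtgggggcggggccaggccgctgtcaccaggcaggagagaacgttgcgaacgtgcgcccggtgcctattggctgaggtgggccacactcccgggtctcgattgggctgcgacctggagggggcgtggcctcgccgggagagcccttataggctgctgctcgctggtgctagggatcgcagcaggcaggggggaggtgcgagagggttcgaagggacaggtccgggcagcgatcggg
The antioxidant core occurred in 2 of the 11 promoters and in 12.4% of all 32851 RefSeq mouse promoters of the same 300 bases. In Sesn2 it lay from -36 to -28 on the gene's strand, and in Gadd45g from -168 to -160 on the opposite strand. Starts are those of RefSeq. In GENCODE M21, used for gene positions below, Sesn2 reaches 132510501 and Ddit4 59951834, so part of those printed stretches lies within the gene. The Sesn2 match is in that part. The composite site occurred in Gadd45g from -101 to -94, on the opposite strand, and in 3.97% of all promoters. The cyclic AMP element was found in 0 of the 11 and in 1.79% of all promoters. The other 9 promoters, among them that of Ddit4 and 3 of Tsc22d3, held no match to these letters. A match is a stretch of letters and was not tested for binding.

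Total counts ran from 8333148 to 23917081 per library (median 14419832). A gene is called higher or lower where edgeR's quasi-likelihood fit gave it an adjusted p under 0.05 among the 11762 genes tested, with no minimum fold. Levels are TMM-scaled CPM, counts set to a common library total, and log2 differences carry their standard error. Libraries of a group correlated at 0.994 or more on log2 CPM and libraries of different groups at 0.9746 or less, so small differences passed the test. In bulk RNA, fewer cells of a kind and less RNA per cell cannot be told apart. Nfe2l1 itself was 447.6 ± 9.87 CPM in WT DMSO and 180.1 ± 5.27 in KO DMSO (SD, n = 3), and in each treatment the KO libraries were all under the WT libraries. The gap was narrowest at 6 h of CFZ, with 641.9 ± 12.4 CPM in WT and 418.8 ± 7.19 in KO cells. All 8 fibroblast markers were counted in every group. Their summed level was 31600 to 34200 CPM in WT DMSO and 7960 to 8270 in WT at 24 h, and 25400 to 31800 and 10900 to 13000 in the KO line. At 24 h all 8 were lower than in DMSO in WT cells (40.5% of all genes). In KO cells 6 were lower (41.1% of all genes), Pdgfra was higher (log2 fold change 0.10 ± 0.043) and Vim was not called (0.02). That Pdgfra value is smaller in size than the median shift of all genes there with upper-quartile scaling (-0.109) or library size alone (-0.183). Epcam was at 0 in every group, Krt14 was present in both lines (141.8 ± 5.03 CPM in WT DMSO and 58.69 ± 1.46 in KO DMSO), and Cdh1 was higher in KO DMSO (11.63 ± 1.22 CPM) than in WT DMSO (6.118 ± 0.231 CPM) and fell 11.67-fold in WT and 29.29-fold in KO cells by 24 h. The immune and endothelial markers summed to at most 5.96 and 3.83 CPM. At these low levels Ptprc was at 0 in every WT group and counted in every KO group. By 24 h Cd68 rose 4.80-fold in WT and 5.87-fold in KO cells, and Cdh5 rose 12.7-fold and 18.6-fold. The part of these marker changes in the results below was not tested.

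**Figure D1:**
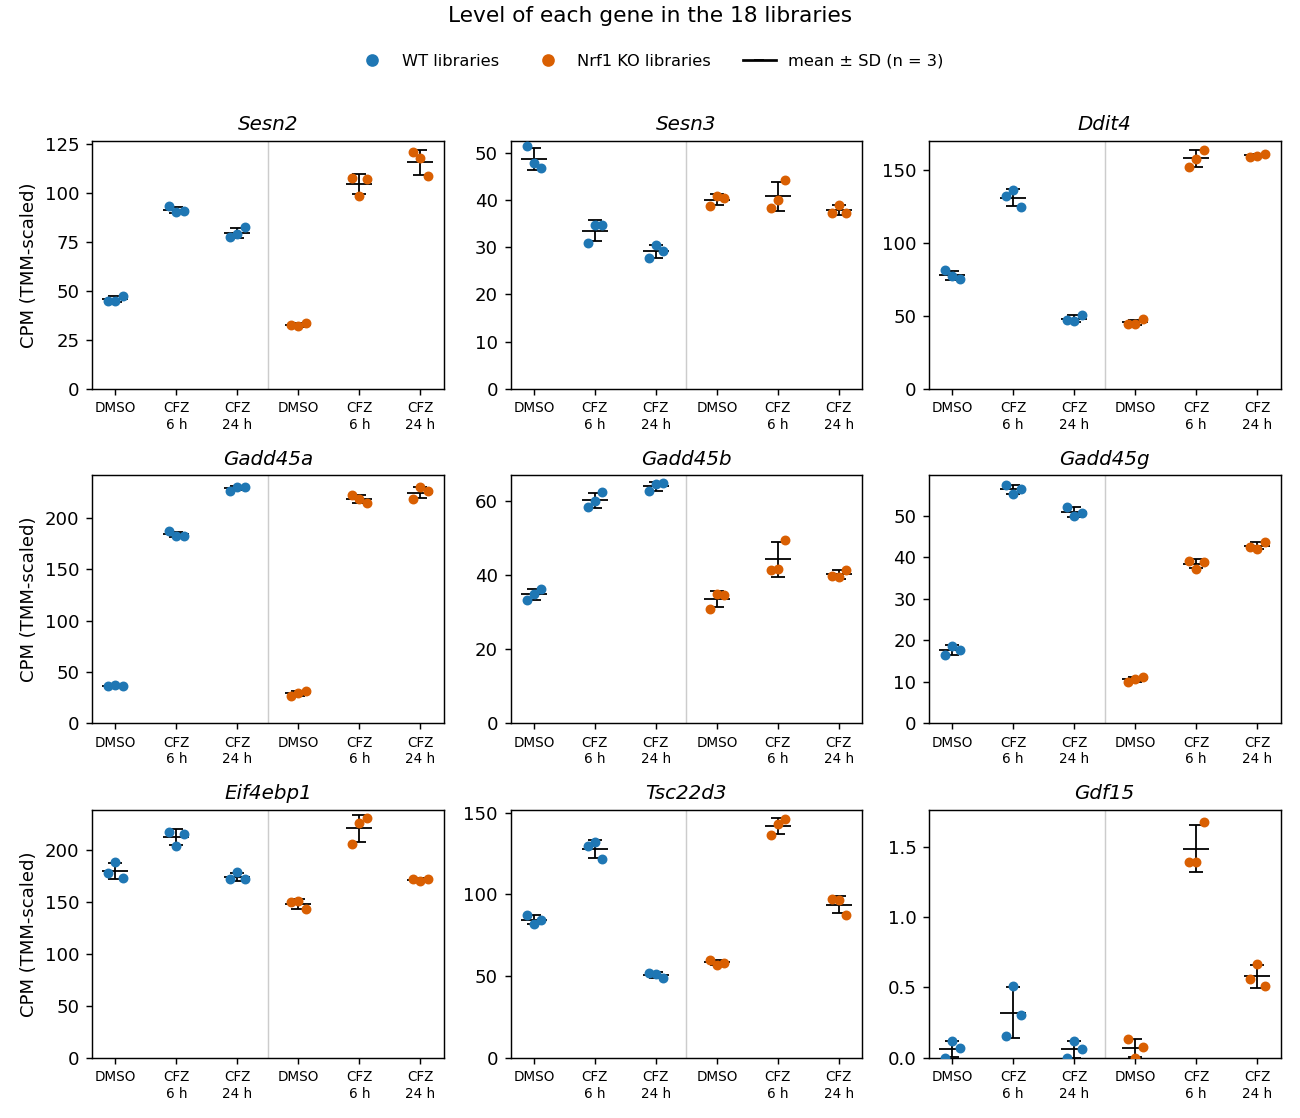
Level of each of the 9 genes in every library, in TMM-scaled CPM on linear axes from 0, with WT libraries in blue and KO libraries in orange and black bars for the mean ± SD of 3 replicates. Ddit4 and Tsc22d3 fell below their DMSO level in WT cells at 24 h and not in KO cells, and Gdf15 stayed at or under 1.68 CPM everywhere.

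Without Gdf15, which is described last because its counts are few, the other 8 genes showed this pattern. In WT cells at 6 h of CFZ, 7 of the 8 were higher and 1 (Sesn3) lower, where 35.6% of all genes tested were higher and 36.2% lower. In WT cells at 24 h only Gadd45a, Gadd45b, Gadd45g and Sesn2 were still higher than in DMSO. Ddit4, Tsc22d3 and Sesn3 were lower, and Eif4ebp1 was not called (43.2% of all genes higher, 40.5% lower). In KO cells 7 of the 8 were higher at 6 h (34.5% of all genes) and 7 at 24 h (44.4%), and 0 of the 8 were lower (35.0% and 41.1% of all genes). At least 2-fold increases were seen for 3 of the 8 genes in WT cells at 6 h (3.98% of all genes), 2 at 24 h (10.5%), and for 5 (3.30%) and 4 (11.5%) in KO cells.

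The lines already differed in DMSO. There 7 of the 8 genes were lower in the KO line, 0 were higher and Gadd45b was not called, where 29.1% of all genes tested were lower. The log2 differences of the 7 ran from -0.77 (Ddit4) to -0.28 (Eif4ebp1 and Sesn3). Under CFZ the order turned for several of them. At 6 h 5 of the 8 were higher in KO than in WT cells and 2 lower (30.5% and 30.8% of all genes), and at 24 h 4 were higher and 2 lower (35.6% and 36.4%). The genes lower in KO cells at both times were Gadd45b and Gadd45g.

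The interaction of genotype and CFZ asks whether the change from DMSO differed between the lines. It was more positive in KO cells for 6 of the 8 genes at 6 h and for 7 at 24 h, where 19.8% and 29.7% of all genes tested were. It was more negative for 1 gene, Gadd45b, at both times (18.4% and 30.0% of all genes). At least 2-fold more positive interactions at 24 h were those of Ddit4, Tsc22d3 and Sesn2 (3 of the 8 genes, against 4.07% of all genes). These interactions use the same DMSO libraries as the changes within each line, and for the 7 genes other than Gadd45b a lower DMSO level in the KO line is part of each. The interaction at 24 h of any other gene named below holds its own DMSO difference in the same way. For Eif4ebp1 the lines differed by -0.28 in DMSO, and under CFZ no difference was called (0.05 at 6 h, -0.02 at 24 h). Gadd45a differed by -0.31 in DMSO and by -0.03, not called, at 24 h. Gadd45g was still lower in KO cells at 24 h (-0.25). Ddit4, Sesn2, Sesn3 and Tsc22d3 were higher in KO cells at both CFZ times. From 6 h to 24 h, 1 of the 8 was higher and 6 lower in WT cells (36.9% and 35.4% of all genes), and 2 were higher and 2 lower in KO cells (38.7% and 38.3%). The test of whether this later change differed between the lines, added after the values were seen, takes no difference from DMSO, although the DMSO libraries enter the shared fit and so its estimate of spread. It was more positive in KO cells for 4 of the 8 genes and more negative for 2 (20.7% and 22.2% of all genes).

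**Figure D2:**
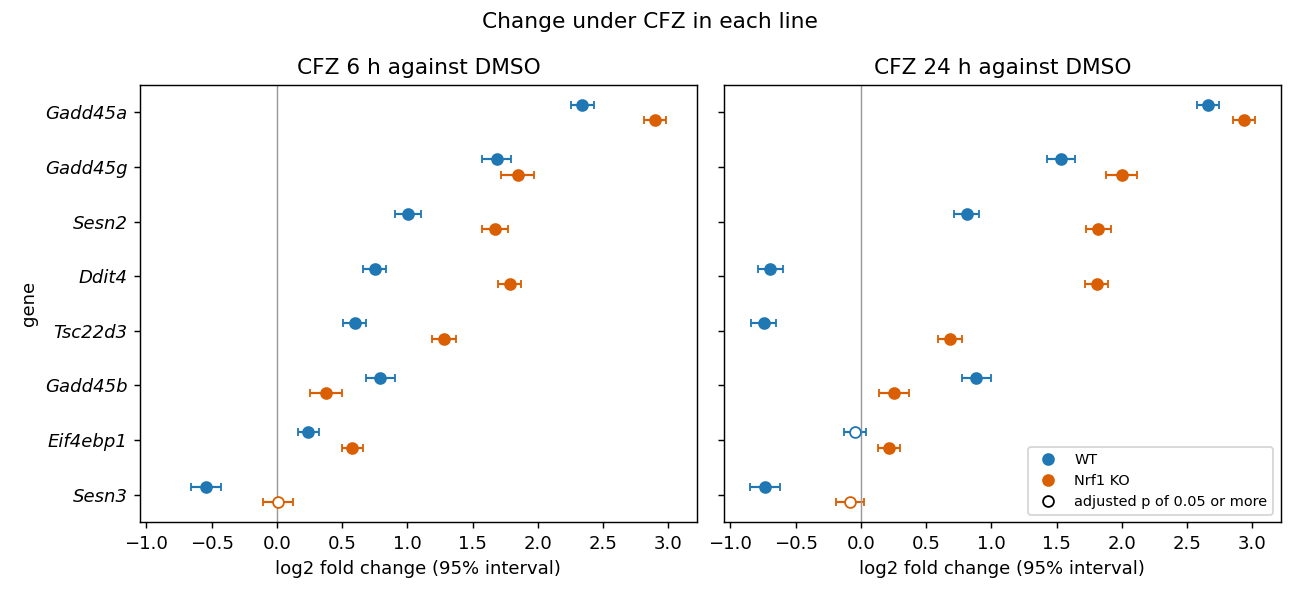
Log2 fold change of 8 genes under CFZ against DMSO of the same line, at 6 h (left) and 24 h (right), with 95% intervals from edgeR's fit, WT in blue and KO in orange. Open symbols mark an adjusted p of 0.05 or more. Ddit4 and Tsc22d3 lie on opposite sides of 0 in the lines at 24 h.

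Ddit4, on chromosome 10 of GRCm38 from 59949669 to 59951834, showed the widest gap between the lines among the 8 genes. In WT cells it stood at 81.04, 77.35 and 74.85 CPM in DMSO (replicates 1, 2 and 3), at 132, 135.8 and 124.4 at 6 h and at 46.76, 46.71 and 50.51 at 24 h. In KO cells it stood at 44.59, 44.37 and 47.58 CPM in DMSO, at 152, 157.5 and 163.8 at 6 h and at 158.9, 159.6 and 161.1 at 24 h. The WT libraries thus rose and then fell below every WT DMSO library, while the KO libraries reached their highest level by 6 h and overlapped it at 24 h. Against DMSO the log2 fold change in WT cells was 0.75 ± 0.042 at 6 h (SE, adjusted p = 1.55e-16), turning to -0.69 ± 0.047 at 24 h (adjusted p = 9.43e-15). In KO cells it was 1.78 ± 0.044 at 6 h and 1.81 ± 0.043 at 24 h. The difference between 24 h and 6 h in KO cells was 0.02 (95% interval -0.057 to 0.103). The genotype interaction came to 1.04 ± 0.061 at 6 h (adjusted p = 5.99e-15) and to 2.5 ± 0.064 by 24 h (adjusted p = 4.3e-24), and for the change from 6 h to 24 h it was 1.47 ± 0.060 (adjusted p = 8.61e-19). At 24 h the KO level was 3.32-fold the WT level. In DMSO it had been 1.70-fold lower.

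The sestrins moved apart from each other. Sesn2, on chromosome 4 from 132492032 to 132510501, is the family member induced through ATF4 and NRF2, and its promoter, printed above, is one of the 2 with the antioxidant core. In WT cells it stood at 44.78, 44.7 and 47.34 CPM in DMSO, 93.05, 90.07 and 90.83 at 6 h and 77.26, 79.15 and 82.37 at 24 h. In KO cells it stood at 32.44, 31.83 and 33.58 CPM in DMSO, 107.8, 98.54 and 107 at 6 h and 120.8, 117.7 and 108.5 at 24 h. The KO libraries were the lowest in DMSO and the highest at each CFZ time, with no overlap between the lines in any treatment. The log2 fold change was 1.0 ± 0.047 and 0.81 ± 0.048 in WT cells and 1.67 ± 0.049 and 1.82 ± 0.047 in KO cells, at 6 h and 24 h in turn. The genotype interaction came to 0.67 ± 0.069 at 6 h (adjusted p = 2.21e-09) and to 1.01 ± 0.068 by 24 h (adjusted p = 4.04e-14). From 6 h to 24 h Sesn2 was lower in WT cells (-0.19 ± 0.045) and higher in KO cells (0.15 ± 0.043). The KO increase was not called with library size alone (0.08, adjusted p = 0.101), and the difference between the 2 lines in this step was 0.34 ± 0.062 (adjusted p = 3.38e-05).

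Sesn3, on chromosome 9 from 14275067 to 14333101, a FOXO target in other cells, was the only one of the 8 genes lower in WT cells at 6 h. Its WT levels were 51.37, 47.89 and 46.8 CPM in DMSO, 30.94, 34.81 and 34.72 at 6 h and 27.75, 30.4 and 29.13 at 24 h. Its KO levels were 38.81, 40.93 and 40.49 CPM in DMSO, 38.23, 39.92 and 44.24 at 6 h and 37.18, 39.05 and 37.23 at 24 h. Every WT library under CFZ lay below every WT DMSO library, and the 9 KO libraries all lay between 37.18 and 44.24 CPM. In WT cells the log2 fold change was -0.54 ± 0.056 at 6 h (adjusted p = 3.39e-10) and reached -0.74 ± 0.057 at 24 h (adjusted p = 1.79e-13). In KO cells it was 0.01 at 6 h (95% interval -0.105 to 0.126, adjusted p = 0.884), and at 24 h it was -0.08 (95% interval -0.193 to 0.026, adjusted p = 0.147). The 6 h value turned negative with other scalings without being called. The 24 h decrease was called with upper-quartile scaling (-0.19), library size alone (-0.27), no expression filter (-0.13) and the compared groups only (-0.12), and when 1 of 5 libraries was left out: WT DMSO replicate 1 (-0.117), any of WT 6 h replicates 1, 2 and 3 (-0.117) or KO 24 h replicate 2 (-0.144). The interaction, 0.55 ± 0.080 at 6 h and 0.65 ± 0.078 at 24 h, was called under every alternative run.

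Taken per kilobase of exon and as shares of the family, which do not depend on scaling between libraries, Sesn1 and Sesn2 exchanged places. Sesn1, the p53-linked sestrin, gave 55.4% ± 1.32 of the family in WT DMSO (SD, n = 3) and 62.9% ± 0.97 in KO DMSO. Sesn2 gave 35.9% ± 1.5 and 29.0% ± 0.86 there. Under CFZ the Sesn2 share was 62.5% ± 1.22 at 6 h and 58.7% ± 2.0 at 24 h in WT cells, and 61.7% ± 1.49 and 66.7% ± 1.43 in KO cells. Sesn3 was the smallest share in every library, from 4.72% to 8.92%. Sesn1 itself was lower under CFZ in both lines, with log2 fold changes at 24 h of -0.52 ± 0.052 in WT and -0.54 ± 0.050 in KO cells, and its interaction there was -0.02 (adjusted p = 0.832). The shares use merged exons of GENCODE M21, which need not be the annotation counted, so the change of a share rests on the counts and its level rests on those lengths as well.

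**Figure D3:**
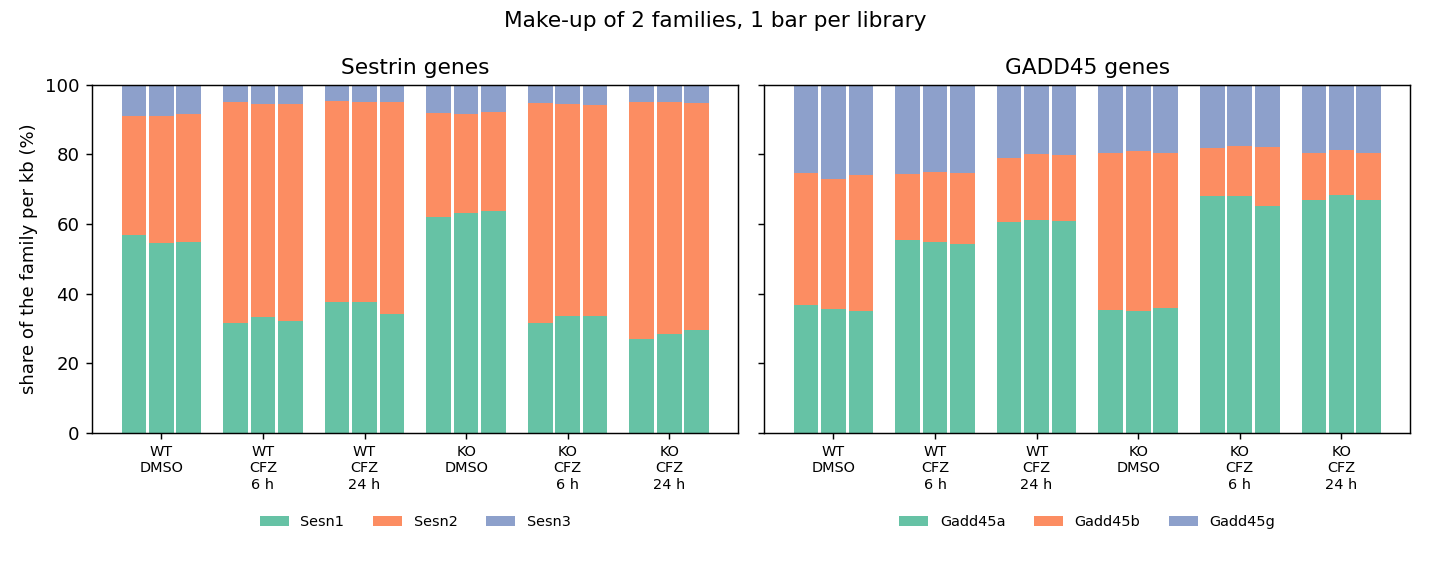
Share of each family's summed level per kilobase (%) given by its members, with 1 bar per library and 3 bars per group, for the sestrin genes (left) and the GADD45 genes (right). Sesn2 replaced Sesn1 as the largest sestrin share in all 12 CFZ libraries, and Gadd45a took the largest GADD45 share in the same libraries.

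Eif4ebp1 had the narrowest range of the 8 genes over the 6 group means, although within KO cells Sesn3 moved less. It lies on chromosome 8 from 27260329 to 27276674. Its WT levels were 178.1, 188.8 and 173.2 CPM in DMSO, 217.9, 204.2 and 216.2 at 6 h and 172, 179 and 172.3 at 24 h. Its KO levels were 150.3, 151.2 and 143 CPM in DMSO, 206.3, 226.2 and 231.3 at 6 h and 172.5, 170.5 and 172.6 at 24 h. All 6 CFZ libraries at 6 h lay above the DMSO libraries of their line, and at 24 h the lines overlapped. The log2 fold change at 6 h was 0.24 ± 0.040 in WT (adjusted p = 3.02e-06) and 0.58 ± 0.041 in KO cells (adjusted p = 6.62e-14). At 24 h it was -0.04 in WT cells (95% interval -0.127 to 0.038, adjusted p = 0.304) and 0.22 ± 0.040 in KO cells (adjusted p = 1.2e-05). Both 24 h values depended on the scaling: the WT value was called with upper-quartile scaling (-0.18), library size alone (-0.15), no filter (-0.10) and the compared groups only (-0.08), and the KO value was not called with library size alone (0.03, adjusted p = 0.441). The genotype interaction came to 0.34 ± 0.057 at 6 h (adjusted p = 1.53e-05) and to 0.26 ± 0.057 by 24 h (adjusted p = 0.000218). From 6 h to 24 h it was lower in both lines, by log2 values of -0.28 and -0.36. Between the lines no difference was called at 6 h (0.05, adjusted p = 0.259), except with upper-quartile scaling (0.10), library size alone (0.12) and without KO 6 h replicate 1 (0.103, adjusted p = 0.0352).

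Eif4ebp1 was the largest share of the 4E-BP genes per kilobase in every group, from 71.9% ± 1.21 in WT at 24 h to 81.8% ± 1.70 in KO at 6 h. Eif4ebp3 rose in both lines at 24 h (log2 fold change 0.99 ± 0.099 in WT and 0.80 ± 0.11 in KO), and its share went from 8.48% ± 0.67 to 16.4% ± 1.2 in WT cells and from 7.82% ± 0.96 to 11.8% ± 0.83 in KO cells. Of its exonic bases 67.3% overlap another gene on the same strand, so its reads are uncertain. Eif4ebp2 was lower in both lines at 24 h (-0.19 ± 0.039 in WT and -0.17 ± 0.038 in KO cells).

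Tsc22d3, on chromosome X from 140539528 to 140600659, followed Ddit4 in WT cells. Its WT levels were 87.53, 81.84 and 84.2 CPM in DMSO, 129.8, 132.1 and 121.9 at 6 h and 52.05, 51.03 and 48.65 at 24 h. Its KO levels were 59.95, 56.91 and 58.18 CPM in DMSO, 136.6, 142.9 and 146.3 at 6 h and 96.97, 96.69 and 87.59 at 24 h. Both lines peaked at 6 h, and at 24 h the WT libraries lay below all other libraries of the series while the KO libraries stayed above their DMSO level. The log2 fold change was 0.60 ± 0.043 and -0.75 ± 0.048 in WT cells and 1.28 ± 0.044 and 0.68 ± 0.045 in KO cells, at 6 h and 24 h in turn. The interaction was 0.68 ± 0.062 at 6 h (adjusted p = 1.4e-10), 1.43 ± 0.066 at 24 h (adjusted p = 3.97e-18) and 0.75 ± 0.064 for the step from 6 h to 24 h (adjusted p = 3.56e-11). Between the lines at 6 h the KO level was higher by 0.15 ± 0.042 (adjusted p = 0.00329), which was not called without WT 6 h replicate 3 (0.10, adjusted p = 0.0547). At 24 h it was higher by 0.89 ± 0.048.

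Its paralogue Tsc22d1, a TGF-beta-responsive gene, had the largest interaction at 24 h among the paralogues. It fell from 180.6 ± 1.46 CPM in WT DMSO to 89.7 ± 5.19 at 24 h (log2 fold change -1.01 ± 0.037) and rose in KO cells from 192.6 ± 2.99 to 321.3 ± 6.03 (0.74 ± 0.033), with an interaction of 1.75 ± 0.050. Tsc22d2 rose in both lines (0.42 ± 0.053 and 0.47 ± 0.053) and Tsc22d4 fell in both (-0.74 ± 0.044 and -0.57 ± 0.040). Of the 6 paralogues tested, 2 were higher and 4 lower in WT cells at 24 h, where 43.2% and 40.5% of all genes were, with a median log2 fold change of -0.356 against 0.0232. For KO cells 3 were higher and 3 lower, where 44.4% and 41.1% of all genes were (median 0.153 against 0.0304). The interaction at 24 h was more positive for 2 (Tsc22d1 and Tsc22d4), where 29.7% of all genes were, and not called for 4. That of Tsc22d4, 0.16 ± 0.060 (adjusted p = 0.0222), was not called with library size alone, with DESeq2 or without WT DMSO replicate 1, WT 24 h replicate 2 or KO 24 h replicate 2, and over all alternatives it lay between 0.083 and 0.190.

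The GADD45 genes all rose with CFZ in both lines, by unequal amounts. Gadd45a, on chromosome 6 from 67035096 to 67037457, rose most. Its WT levels were 35.8, 37.02 and 36 CPM in DMSO, 187, 182.4 and 182 at 6 h and 226.5, 230.2 and 230.1 at 24 h. Its KO levels were 26.73, 29.41 and 31.15 CPM in DMSO, 222.2, 218.5 and 214.1 at 6 h and 218.3, 229.5 and 225.7 at 24 h. The KO libraries were lower than WT in DMSO, higher at 6 h and overlapped the WT libraries at 24 h. The change was 5.07-fold at 6 h and 6.32-fold at 24 h in WT cells, and 7.44-fold and 7.65-fold in KO cells. The genotype interaction came to 0.55 ± 0.062 at 6 h (adjusted p = 1.14e-08) and to 0.28 ± 0.061 by 24 h (adjusted p = 0.00024), and for the step between the times it was -0.28 ± 0.049 (adjusted p = 2.64e-05). At 24 h the lines differed by -0.03 (95% interval -0.098 to 0.041), and this value turned to 0.01 with upper-quartile scaling. Of the exonic bases of Gadd45a 19.1% overlap E230016M11Rik on the opposite strand, and the use of strand in counting is not given in the sources used here. E230016M11Rik was counted at 4 to 22 reads per library and did not exceed 1.47 CPM.

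Gadd45g, on chromosome 13 from 51846678 to 51848468, holds a pair of motif matches in the promoter printed above. Its WT levels were 16.38, 18.72 and 17.77 CPM in DMSO, 57.41, 55.41 and 56.41 at 6 h and 52.15, 49.95 and 50.76 at 24 h. Its KO levels were 9.915, 10.63 and 11.26 CPM in DMSO, 39.18, 37.3 and 38.97 at 6 h and 42.6, 42.05 and 43.76 at 24 h. The KO libraries lay below the WT libraries in every treatment. The increase was 3.21-fold and 2.89-fold in WT cells and 3.59-fold and 3.99-fold in KO cells. The interaction was 0.16 at 6 h (95% interval -0.015 to 0.336, adjusted p = 0.161) and 0.47 ± 0.084 at 24 h (adjusted p = 1.79e-05). The difference between KO and WT was -0.71 ± 0.069 in DMSO, -0.55 ± 0.050 at 6 h and -0.25 ± 0.047 at 24 h. Between 6 h and 24 h it fell in WT cells (-0.15 ± 0.046) and rose in KO cells (0.15 ± 0.051, adjusted p = 0.00736). The KO increase was not called with library size alone (0.08, adjusted p = 0.144) or without KO 6 h replicate 2 (0.130, adjusted p = 0.0501). The interaction of that step was 0.30 ± 0.069 (adjusted p = 0.000551).

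Gadd45b, on chromosome 10 from 80930073 to 80932204, an NF-kB and TGF-beta target in other cells, was the 1 gene of the 8 whose increase was smaller in KO cells. Its WT levels were 33.32, 34.96 and 36.33 CPM in DMSO, 58.39, 59.93 and 62.36 at 6 h and 62.62, 64.64 and 64.83 at 24 h. Its KO levels were 30.93, 34.95 and 34.74 CPM in DMSO, 41.46, 41.7 and 49.64 at 6 h and 39.72, 39.39 and 41.48 at 24 h. In DMSO the lines overlapped, and under CFZ every KO library lay below every WT library. The log2 fold change was 0.79 ± 0.055 and 0.88 ± 0.055 in WT cells and 0.37 ± 0.060 and 0.25 ± 0.057 in KO cells, and the last was not called with library size alone (0.07, adjusted p = 0.26). The genotype interaction came to -0.42 ± 0.081 at 6 h (adjusted p = 0.000115) and to -0.63 ± 0.079 by 24 h (adjusted p = 4.1e-08), called under every alternative. The step from 6 h to 24 h differed by -0.21 ± 0.079 (adjusted p = 0.0301), and this call was lost under 11 of 25 alternatives: no expression filter, the compared groups only, DESeq2 (-0.22, adjusted p = 0.06) and leaving out any of WT DMSO replicate 1, WT 6 h replicates 1 and 2, WT 24 h replicates 2 and 3, KO 6 h replicate 3, or KO 24 h replicates 1 and 2. The smallest of these values was -0.141, without KO 6 h replicate 3, the library that stood above its 2 replicates. Within KO cells that step was -0.12 (adjusted p = 0.0656). It was called lower under 10 of the 25 alternatives, among them the replicate block (-0.13, adjusted p = 0.0252), both other scalings and the omission of WT DMSO replicate 1, WT 6 h replicates 1, 2 and 3, KO 6 h replicates 1 and 2 or KO 24 h replicate 3.

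Per kilobase Gadd45a became the leading GADD45 gene under CFZ. In DMSO its share was 35.8% ± 0.92 in WT and 35.4% ± 0.53 in KO cells, and Gadd45b gave 38.1% ± 0.92 and 45.3% ± 0.79. At 24 h the Gadd45a share was 60.8% ± 0.28 in WT and 67.3% ± 0.78 in KO cells, and Gadd45b gave 18.9% ± 0.27 and 13.4% ± 0.34. The Gadd45g share was 26.1% ± 0.91 in WT DMSO and 20.4% ± 0.53 at 24 h, and in KO cells 19.4% ± 0.35 and 19.3% ± 0.45. The shares of Gadd45a and Gadd45b at 24 h did not overlap between the lines.

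Gdf15 was barely expressed. It lies on chromosome 8 from 70629393 to 70632456. It passed the expression filter only through the KO libraries at 6 h, so its calls were not counted above and no p-value of it is given. Gdf15 fits are used only in the closing part, on how the results depend on the processing. The values of Gdf15 given here describe these libraries. Its counts in WT cells were 0, 2 and 1 in DMSO, 2, 7 and 4 at 6 h and 0, 2 and 1 at 24 h. In KO cells they were 2, 0 and 2 in DMSO, 19, 18 and 14 at 6 h and 8, 12 and 8 at 24 h. The KO libraries at 6 h (1.39 to 1.68 CPM) lay above all other libraries, and those at 24 h (0.507 to 0.666 CPM) overlapped the WT libraries at 6 h (0.152 to 0.510 CPM). Summed over each group, the level at 6 h in WT cells was 5.58 times that in DMSO (exact 95% interval 1.53 to 30.5, 13 against 3 counts). At 24 h the ratio was 8.3 in KO cells (2.9 to 32.5) and 1.21 in WT cells (0.162 to 9.06), and the KO level was 8.29 times the WT level (2.56 to 42.6). These intervals pool the 3 libraries of a group, cover counting error only and hold no spread between cultures. They are not a test of a difference.

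The receptor gene Gfral was at 0 in all 9 WT libraries and at 18, 19 and 100 counts summed over the KO libraries in DMSO, at 6 h and at 24 h. Against a floor of 3 counts over the WT group, the KO level was 5.46-fold, 7.29-fold and 29.6-fold higher. The counting error of the KO sums is not in these folds. In KO cells it reached 2.11 ± 0.56 CPM at 24 h (SD, n = 3). The co-receptor gene Ret was below the expression filter.

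The 9 genes can be compared per kilobase of exon within a group. In WT DMSO the order of the levels was Eif4ebp1 (81.97 CPM per kb), Ddit4 (44.3), Gadd45b (21.94), Gadd45a (20.57), Tsc22d3 (19.47), Gadd45g (15.02), Sesn2 (13.13), Sesn3 (3.19) and Gdf15 (0.033). At 24 h of CFZ Gadd45a came first in both lines (129.8 in WT and 127.3 in KO cells). Ddit4 stood at 27.34 in WT and 91.11 in KO cells at that time, where it came second in the KO line. Over the 6 groups the highest mean of a gene was between 1.49 times (Eif4ebp1) and 7.87 times (Gadd45a) the lowest among the 8 genes, and for 6 of them the lowest group was KO DMSO. For Ddit4 and Gadd45b that group overlapped the next, which was WT at 24 h for Ddit4 and WT DMSO for Gadd45b, and for the other 4 it did not.

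For each gene the 2 genes with the most similar course were taken, by the root mean square difference of their centred log2 CPM over the 6 group means. For Sesn2 they were Hsp90ab1, a cytosolic chaperone (0.112), and Sash1 (0.124), and for Gadd45g Grhl1 (0.180) and the small heat shock protein Hspb8 (0.211). For Eif4ebp1 they were Hspa9, the mitochondrial chaperone mortalin (0.051), and Exoc6 (0.052). For Tsc22d3 they were the immediate early gene Ier2 (0.112) and the cytokine feedback inhibitor Cish (0.164), and for Gadd45a Dedd2 (0.108) and 1810032O08Rik (0.191). For Sesn3 they were Mettl23 (0.052) and Strbp (0.057), for Gadd45b Lrrc59 (0.049) and Zmym1 (0.053). The nearest genes to Ddit4, Nfil3 (0.281) and Gnal (0.287), were farther off than those of the other 7 genes. Those of Gdf15, with its few counts, were Fam212b (0.379) and C3 (0.397).

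The rest of the mTORC1 pathway was listed as 51 genes for the complex and its regulators, of which 50 were tested. In WT cells at 24 h 25 were higher and 18 lower, where 43.2% and 40.5% of all genes were, with a median log2 fold change of 0.184 against 0.0232 over all genes. In KO cells 24 were higher and 22 lower, where 44.4% and 41.1% of all genes were (median 0.108 against 0.0304). These counts are near the shares over all genes. The largest increases in WT cells were those of Prkab2, a regulatory subunit of the energy sensor AMPK (2.39 ± 0.060), and Ulk1, the autophagy kinase that mTORC1 inhibits (1.65 ± 0.043). The largest decreases were those of Deptor, an inhibitory subunit of the mTOR complexes (-1.38 ± 0.13), and Kptn of the KICSTOR complex (-1.33 ± 0.11). Ulk1 rose in KO cells too (1.69 ± 0.042), with an interaction of 0.04 ± 0.062 (adjusted p = 0.61). The interaction at 24 h was more positive for 7 of the 50 genes and more negative for 22, where 29.7% and 30.0% of all genes were, with a median of -0.11 against 0.00489 over all genes. The most negative were those of Prkab2 (-1.28 ± 0.10) and Rptor, the scaffold raptor (-0.97 ± 0.057). Rptor rose by 1.32 ± 0.040 in WT and by 0.35 ± 0.041 in KO cells. The most positive were those of Pdcd4, an inhibitor of eIF4A (0.85 ± 0.080), and Mlst8 (0.52 ± 0.067). In DMSO 18 of the 50 were higher in KO cells and 11 lower, where 25.7% and 29.1% of all genes were (median 0.0582 against -0.0173), and the lowest value was that of Rragd, a Rag GTPase (-4.20 ± 0.40), at 1.77 ± 0.29 CPM in WT and 0.099 ± 0.052 CPM in KO cells.

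Partners of GADD45 and genes of the G2/M checkpoint were listed as 8 genes. At 24 h 1 was higher and 6 lower in WT cells, where 43.2% and 40.5% of all genes were (median log2 fold change -0.449 against 0.0232). In KO cells 1 was higher and 7 lower, where 44.4% and 41.1% of all genes were (median -0.668 against 0.0304). The gene that rose was Cdkn1a (p21), by 0.34 ± 0.033 in WT and 1.55 ± 0.033 in KO cells, with an interaction of 1.21 ± 0.047. Ccnb1, cyclin B1, fell in both lines, with log2 fold changes of -1.22 ± 0.041 in WT and -3.29 ± 0.050 in KO cells (interaction -2.07 ± 0.069). Those of Cdk1 were -1.07 ± 0.045 and -2.28 ± 0.048 (interaction -1.21 ± 0.067). The kinase gene Map2k6 fell less in KO cells (-0.64 ± 0.094) than in WT cells (-1.68 ± 0.14), with an interaction of 1.04 ± 0.17.

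Transcription factors known to act on these genes were listed as 12. At 6 h 10 were higher in WT cells and 2 lower, where 35.6% and 36.2% of all genes were. At 24 h 5 were higher and 7 lower in WT cells, where 43.2% and 40.5% of all genes were (median -0.225 against 0.0232). For KO cells at 24 h 5 were higher and 6 lower, where 44.4% and 41.1% of all genes were (median -0.165 against 0.0304). Atf3 rose most, by 4.09 ± 0.067 at 24 h in WT and 7.16 ± 0.070 in KO cells, to 135.8 ± 2.16 and 441.4 ± 29.5 CPM (SD, n = 3). Ddit3 (CHOP) followed with 1.47 ± 0.045 and 3.28 ± 0.045. Their interactions at 24 h were 3.07 ± 0.14 and 1.81 ± 0.065. Both genes were lower in KO than in WT cells in DMSO (-1.37 ± 0.13 and -0.57 ± 0.052) and higher at 24 h (1.70 ± 0.042 and 1.245 ± 0.039). Atf4 mRNA rose in both lines, by 0.40 ± 0.034 and 0.35 ± 0.034. Its interaction was -0.04 (adjusted p = 0.475), while its level was higher in KO cells in DMSO (0.20 ± 0.034) and at 24 h (0.16 ± 0.034). The interaction of Trp53 was -0.01 (adjusted p = 0.891). Nr3c1, the glucocorticoid receptor, fell further in KO cells (-1.83 ± 0.039) than in WT cells (-1.17 ± 0.038, interaction -0.66 ± 0.055), and Egr1 was lower in both lines (-1.33 ± 0.12 in WT and -0.68 ± 0.093 in KO cells). Nfe2l2 (NRF2) rose less in KO cells (0.48 ± 0.034) than in WT cells (0.82 ± 0.036, interaction -0.34 ± 0.050). Its level was higher in KO than in WT cells in DMSO (0.38 ± 0.036), and at 24 h no difference was called (0.04, adjusted p = 0.283).

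The other glucocorticoid receptor targets moved in both directions. Of the 6 tested, 4 were higher and 2 lower in WT cells at 24 h, where 43.2% and 40.5% of all genes were, with a median of 0.501 against 0.0232. For KO cells 5 were higher, Mt2 (0.21 ± 0.055) among them, and 1 lower (Fkbp5). There 44.4% and 41.1% of all genes were (median 0.858 against 0.0304). Sgk1 (2.04 ± 0.044) and Dusp1 (1.64 ± 0.040) rose in WT cells at the time when Tsc22d3 fell, and Fkbp5 (-1.48 ± 0.065) and Mt2 (-0.36 ± 0.059) fell. The interaction at 24 h was more positive for 4 (Mt2 at 0.57 ± 0.080 and Fkbp5 at 0.50 ± 0.090 lead them) and more negative for Sgk1 (-0.64 ± 0.059) and Dusp1 (-0.72 ± 0.056), where 29.7% and 30.0% of all genes were, with a median of 0.357 against 0.00489. Sgk1 was higher in KO than in WT cells both in DMSO (1.27 ± 0.044) and at 24 h (0.63 ± 0.040). Dusp1 was higher in KO cells in DMSO (0.38 ± 0.043) and lower at 24 h (-0.34 ± 0.037).

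**Figure D4:**
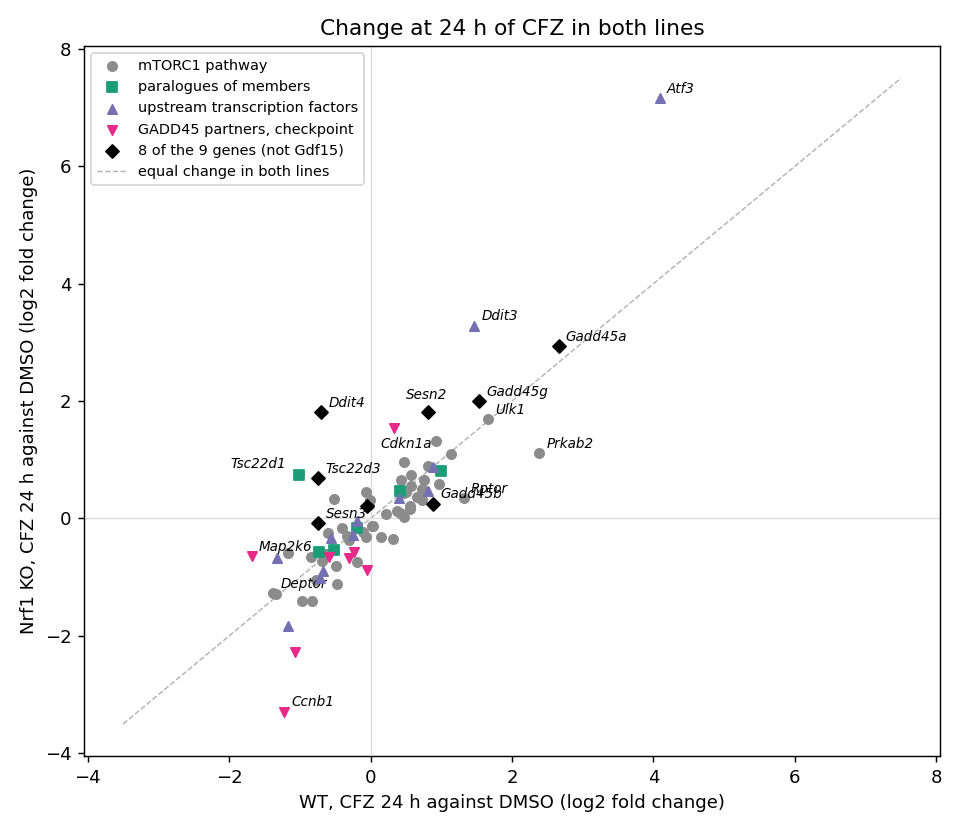
Log2 fold change at 24 h of CFZ against DMSO in WT cells (x axis) and KO cells (y axis) for 8 of the 9 genes (black diamonds) and the tested genes of 4 lists, with a dashed line of equal change. Ddit4, Tsc22d3 and Tsc22d1 lie in the upper left, lower in WT and higher in KO cells, and Atf3 and Ddit3 lie above the line.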

How the data were processed

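RNA-sequencing data were analysed for 18 libraries, grouped by the sample labels into 6 groups of 3. The authors made KAPA stranded mRNA libraries, sequenced paired 125-base reads on a HiSeq 2500 and ran the RNA Express app, which uses STAR and DESeq2. The deposited values are raw counts per gene symbol, matched to samples by column name. The build, annotation, versions and use of strand are not given in the sources used here. The replicates are called biological in the sources, and p-values measure the spread between these cultures. Each genotype was a single line, so the knockout cannot be told apart from other differences between the lines.

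These counts were fitted with edgeR 4.0.16 (R 4.3.3), by 1 quasi-likelihood model of the 6 groups with TMM scaling, over the 11762 genes past its filter (minimum count 10, total 15). Benjamini-Hochberg adjustment ran over all genes tested in each of 12 comparisons, and a standard error is the log2 fold change divided by the square root of F. The comparison of the 6 h to 24 h step between the lines was added after the values were seen. As 25 alternatives each of the 18 libraries was left out, and the fits were repeated with upper-quartile scaling, library size alone, DESeq2 1.42.0, no filter, a mean count of at least 10, only the groups compared, and a replicate block. Deviations from the group means were uncorrelated between libraries of equal number (mean r 0.0136, 45 pairs), so the numbers were not taken as pairs. The common biological coefficient of variation was 3.13%, and intervals on summed counts cover counting error only. Coordinates are from GENCODE M21 (GRCm38) by symbol and promoters from RefSeq (GRCm38.p6). The test was also run on simulated counts, and the outcome is not given here.

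The genes and lists were chosen with earlier results of these data known. Named from each list were the 2 largest positive and 2 largest negative values among called genes in WT at 24 h and in the interaction at 24 h. Sesn1, Eif4ebp2, Cdk1 (in WT), Rragd, Atf4, Trp53, Gfral and Ret were named after their values were seen.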

Additional observations from a re-analysis of the deposited data

Results flagged for a closer look

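Responses that differed between the lines by the interaction test of genotype and treatment are gathered here, as log2 differences (KO minus WT) with the adjusted p of edgeR's quasi-likelihood fit. All of them were called, and none was weighed for a cause. Those at 6 h and 24 h hold the DMSO difference between the lines. Under CFZ itself no difference between KO and WT was called for Eif4ebp1 at 6 h or 24 h, or for Gadd45a at 24 h.

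At 6 h of CFZ the response was more positive in KO cells for Ddit4 (1.04, adjusted p = 5.99e-15), Tsc22d3 (0.683, adjusted p = 1.4e-10), Sesn2 (0.668, adjusted p = 2.21e-09), Gadd45a (0.555, adjusted p = 1.14e-08), Sesn3 (0.553, adjusted p = 1.3e-06) and Eif4ebp1 (0.337, adjusted p = 1.53e-05). It was more negative for Gadd45b (-0.418, adjusted p = 0.000115).

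At 24 h it was more positive for Ddit4 (2.5, adjusted p = 4.3e-24), Tsc22d3 (1.43, adjusted p = 3.97e-18), Sesn2 (1.01, adjusted p = 4.04e-14), Sesn3 (0.655, adjusted p = 1.59e-08), Gadd45g (0.465, adjusted p = 1.79e-05), Gadd45a (0.277, adjusted p = 0.00024) and Eif4ebp1 (0.261, adjusted p = 0.000218). It was more negative for Gadd45b (-0.63, adjusted p = 4.1e-08).

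For the step from 6 h to 24 h, which takes no difference from DMSO though the DMSO libraries enter the shared fit, it was more positive for Ddit4 (1.47, adjusted p = 8.61e-19), Tsc22d3 (0.748, adjusted p = 3.56e-11), Sesn2 (0.343, adjusted p = 3.38e-05) and Gadd45g (0.305, adjusted p = 0.000551). It was more negative for Gadd45a (-0.278, adjusted p = 2.64e-05) and Gadd45b (-0.212, adjusted p = 0.0301). The Gadd45b call was lost under 11 of 25 alternatives, among them DESeq2 (adjusted p = 0.06).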

How the results depend on the processing

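The number of genes called among those of the 9 that were tested stayed within 1.5 times in each of the 12 comparisons under the 25 alternatives. Gdf15 was not tested with a mean count of at least 10, nor in comparisons without KO cells at 6 h when only the groups compared entered the fit. With the replicate block 8 of the 9 genes were called in the interaction at 24 h and 7 at 6 h, as without it. Gdf15 was not among them. Without the block 59.8% and 38.3% of all genes tested were called there, in either direction. The replicate block changed the call of Gadd45b in KO cells from 6 h to 24 h (-0.1277, adjusted p = 0.0252) and no other call of the 9 genes. Scaling by library size alone moved the median log2 fold change of all genes by up to -0.183 (KO at 24 h against DMSO), so log2 values under about that size depend on the scaling.
With library size alone 35.4% of the genes called were higher in WT at 6 h in place of 49.6% (37.9% with upper-quartile scaling), 36.4% in place of 49.7% in KO at 6 h, 41.6% in place of 52% in KO at 24 h, 57.7% in place of 46.9% in KO against WT in DMSO, 60.8% in place of 49.8% at 6 h and 30.1% in place of 48.2% in the interaction of genotype and the 6 h to 24 h step.
Among the 9 genes and Nfe2l1 the directions that turned are given here; none was called after turning, and before it only that of Nfe2l1 was (0.182). With upper-quartile scaling they were Sesn3 in KO at 6 h (-0.0638), Ddit4 in KO from 6 h to 24 h (-0.01194), and Gadd45a (0.01319) and Eif4ebp1 (0.01826) in KO against WT at 24 h. With library size alone they were Sesn3 in KO at 6 h (-0.1024), Ddit4 (-0.04772) and Gadd45a (-0.03079) in KO from 6 h to 24 h, Gadd45b in KO against WT in DMSO (0.002207) and Nfe2l1 in KO at 24 h (-0.0009205). Sesn3 in KO at 6 h was -0.039 without a filter and -0.005525 with DESeq2. With single libraries left out the same comparison of Sesn3 ran from -0.03904 to 0.05762, Ddit4 in KO from 6 h to 24 h from -0.004495 to 0.04594, Gadd45b in KO against WT in DMSO from -0.07691 to 0.0003958, Gadd45a in KO against WT at 24 h from -0.03639 to 0.007752, Gdf15 in WT at 24 h from -0.5036 to 1.088 and Gdf15 in KO against WT in DMSO from -0.3595 to 1.087. The cause was not tested.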
